A study of Mus musculus with 10 samples.

Results

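H3K9lc regions in introns are the stretches of chromatin marked by lactylation of lysine 9 on histone H3 (H3K9lc) that the authors' annotation places inside an intron. They were taken as every region of the deposited siHK1 against TGF table for H3K9lc whose annotation begins with Intron, and 17243 of the 74751 listed regions (23.1%) met this rule. The mark was measured in primary fibroblasts of the mouse heart by CUT&Tag, which uses an antibody to bring a transposase to marked nucleosomes and sequences the DNA it cuts out. The NC library came from cells labelled only as control, and its antibody is read from the label that names its H3K9lc table. The TGF library came from cells given TGF-β. The siHK1 library (titled SI) came from cells transfected with an siRNA against hexokinase 1 (HK1) and then given TGF-β. There was 1 library per condition, so no value has a replicate error, no difference was tested, and every comparison is between libraries rather than conditions. The sources used here do not say how many animals or cultures a library pools, and the knockdown could not be checked from these tables.

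TGF-β drives resident fibroblasts towards contractile, matrix-producing myofibroblasts. HK1 catalyses the first step of glycolysis, whose end product pyruvate can be reduced to lactate, and lactate supplies the lactyl group that is attached to histone lysines and is found at active chromatin. Introns make up most of the length of genes; they hold enhancers, to which factors such as AP-1 (the JUN and FOS dimer) bind, and a large load of interspersed repeats left by transposable elements.

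In the table with TGF and siHK1, the TGF library held 2490853 reads and the siHK1 library 1419023, and in the table with NC the NC library held 115572 against 2313288 in TGF. These are totals over listed regions, not sequencing depths, which are unknown here. The 100 regions with most TGF reads took 21.1% of the TGF reads, 24.2% of the siHK1 reads and 38.0% of the NC reads.

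Many of these intron regions carried a sequence that recurs throughout the genome. The 31 bases at the centre of a region occurred only once in chromosomes 1 to 19, X and Y at 9534 of 17243 intron regions (55.3%, 95% interval 54.5 to 56.0), against 73.6% of promoter regions and 48.4% of distal intergenic regions. At 4116 intron regions (23.9%) they occurred 100 times or more. How reads that fit several places were assigned is not given in the sources used here, so a count at a repeated sequence may include reads from other copies. To show what is shared, 24-base sequences were ranked by the number of intron regions that hold them, on either strand and leaving out short tandem repeats, and 8 were kept, each chosen for the regions it added (called A to H, chosen after the data were seen). For A to F the region with most TGF reads is shown in a window of 120 bases of GRCm38 (RefSeq), 5′ to 3′, with the shared 24 bases in capitals.
Sequence A in Gm26713, chr9:80956136-80956255, plus strand: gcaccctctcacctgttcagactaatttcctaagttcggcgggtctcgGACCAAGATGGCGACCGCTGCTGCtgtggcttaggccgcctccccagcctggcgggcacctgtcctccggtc
Sequence B in C130026I21Rik, chr1:85220745-85220864, plus strand: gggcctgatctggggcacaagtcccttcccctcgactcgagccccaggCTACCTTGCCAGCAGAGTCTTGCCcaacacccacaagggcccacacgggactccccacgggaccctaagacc
Sequence C in Cdk15, chr1:59347091-59347210, plus strand: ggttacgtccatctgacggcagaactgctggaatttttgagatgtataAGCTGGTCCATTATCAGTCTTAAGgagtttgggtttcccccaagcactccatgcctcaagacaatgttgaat
Sequence D in Gm4756, chr12:72641861-72641980, plus strand: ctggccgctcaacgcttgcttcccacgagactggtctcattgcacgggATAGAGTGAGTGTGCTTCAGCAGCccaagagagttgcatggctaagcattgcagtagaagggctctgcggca
Sequence E in C130026I21Rik, chr1:85148182-85148301, plus strand: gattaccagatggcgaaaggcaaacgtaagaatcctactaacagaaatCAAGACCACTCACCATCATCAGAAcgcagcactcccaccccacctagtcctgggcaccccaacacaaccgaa
Sequence F in Vmn2r-ps26, chr5:151535172-151535291, minus strand: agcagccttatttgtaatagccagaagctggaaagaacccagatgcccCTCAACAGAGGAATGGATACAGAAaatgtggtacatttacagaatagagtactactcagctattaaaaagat

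The 74751 regions covered 1.31% of the genome. Since the 8 sequences were chosen for being held by many intron regions, a high share of listed copies is partly fixed by that choice, and the shares are a description. Sequence A had 6094 copies in the genome and 3529 of them (57.9%) lay inside a listed region, and the 432 intron regions that held it were 2.51% of all intron regions against 0.134% of windows of the same length placed 5 kb to either side. For sequence C, 1363 of 1701 copies (80.1%) were listed, 336 of them in introns. The shares were 61.3% for B, 56.1% for D, 58.4% for G and 58.7% for H. Sequences E and F were far more frequent in the genome, with 10359 and 34221 copies, and 15.2% and 3.11% of them were listed. F was also the sequence that intron regions held less often (1.35%) than the windows beside them (2.61%).

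**Figure D1:**
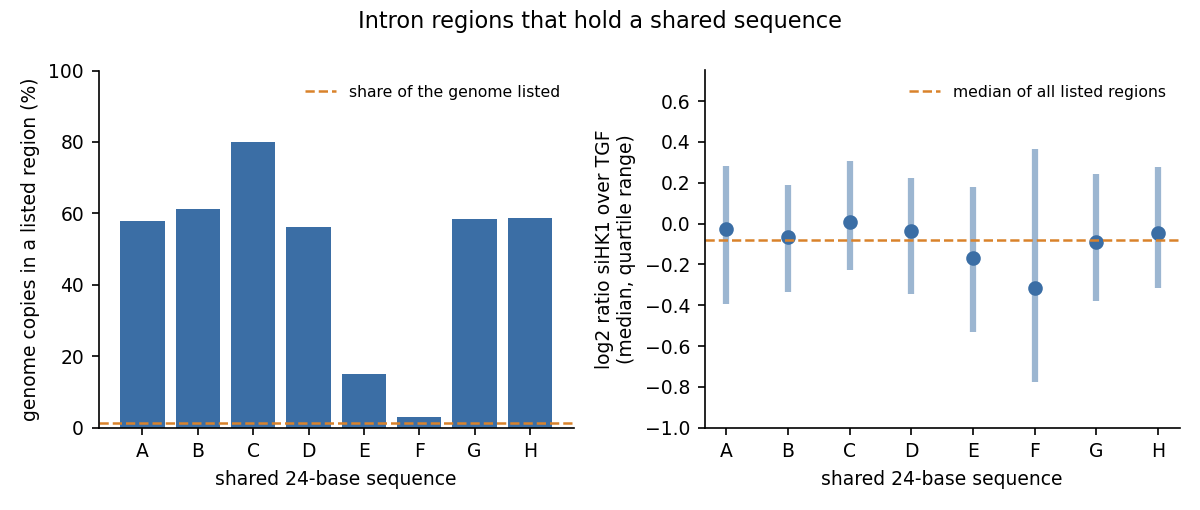
Left, the share (%) of all genome copies of 8 shared 24-base sequences (A to H) that lie in a listed H3K9lc region, with the share of the genome listed as a dashed line. Right, the log2 ratio of siHK1 over TGF for the intron regions that hold each sequence (point, median; bar, quartiles), with the median of all listed regions dashed. C stands highest on the left at 80.1%, and F lowest at 3.11%; the medians on the right run from -0.31 for F to 0.01 for C.

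Regions with a shared sequence held more reads than introns as a whole for all of the 8 but F, and they were also wider in most sets. Those with sequence C held a median of 43 TGF reads (range 10 to 161) and 25 siHK1 reads, and those with sequence B a median of 41 (range 2 to 506) and 23. Both exceed the median over all intron regions, which was 15 reads in TGF (quartiles 8 and 29) and 8 in siHK1 (quartiles 4 and 16). The 313 regions with D and the 194 with G each had a median of 34 TGF reads, the 283 with H 37, the 432 with A 28, the 297 with E 24, and the 233 with F only 13. Per kb, the medians were 88.3 for C, 80.6 for D, 88.7 for G, 65.3 for H and 56.8 for B, but 45.0 for A, 41.8 for E and 36.5 for F, near the 38.9 of all intron regions. They were scattered rather than clustered, since the 336 regions with C lay in 321 host genes on 20 chromosomes. A and B were rich in G and C (median GC content 62.1% and 61.2%) and in CpG (4.99 and 5.13 per 100 bases). In total 2285 intron regions (13.3%) held at least 1 of the 8 sequences and took 16.6% of the TGF reads in introns.

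The most-read intron region was of another kind, a tandem repeat of a few bases. It spanned chr17:13550673-13553195 in intron 2 of 2700054A10Rik and held 52412 reads in TGF and 33960 in siHK1. Its central 120 bases are shown to make the repeat visible, with no capitals.
2700054A10Rik, chr17:13551874-13551993, plus strand: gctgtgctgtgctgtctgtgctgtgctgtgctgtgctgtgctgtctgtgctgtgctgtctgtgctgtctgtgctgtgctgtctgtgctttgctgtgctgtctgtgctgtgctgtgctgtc
The next 4 by TGF reads lay in Smo, the transducer of Hedgehog signals (chr6:29747784-29749072, intron 1; 14163 TGF and 9047 siHK1 reads), Mdga2, a cell-surface protein of neurons (chr12:67059166-67059945, intron 1; 7400 and 4203), Gm33838 (chr9:35305226-35305594, intron 1; 5456 and 4237) and Atrnl1, an attractin-like membrane protein (chr19:58113254-58113703, intron 28; 4747 and 2932). All 5 were masked as repeat over 69.8% to 99.7% of their bases and overlapped listed regions of JUN, SMAD3 and NFATC2 as well. The 2 of them with an NC count were also high in the NC library, with 485 reads in Mdga2 and 714 in Gm33838. With the libraries brought to equal totals, their log2 ratios of TGF over NC were -0.39 and -1.39. None of the 5 shared a 24-base sequence with the mitochondrial genome.

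Across all members, repeat content went with the number of reads. Repeat-masked bases, taken as the lower-case letters of the RefSeq genome sequence, made up 55.4% of intron regions on average, against 38.9% of windows 5 kb to either side, 62.9% of distal intergenic regions and 27.2% of promoters. Mean GC content was 48.8% against 42.9% in the windows beside, and CpG density 1.43 against 0.941 per 100 bases. The members were ranked by the mean of their scaled TGF and siHK1 counts and cut into 5 groups of near-equal size. From the lowest to the highest group, masked bases went from 38.3% to 68.2% and CpG from 0.926 to 2.09 per 100 bases, while the median TGF count went from 4 to 52 reads. A longer region collects more reads, and the median width also went from 239 to 748 bp. Per kb, regions with up to 20% masked bases had a median of 32.0 TGF reads. Those with 20% to 80% had 35.9, and those with over 80% had 47.2. The part of reads from other copies in this was not tested. On the scale of reads per kb, the median over all intron regions was 38.9 in TGF and 21.6 in siHK1, between promoters (35.6 and 19.5) and distal intergenic regions (40.9 and 22.3).

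**Figure D2:**
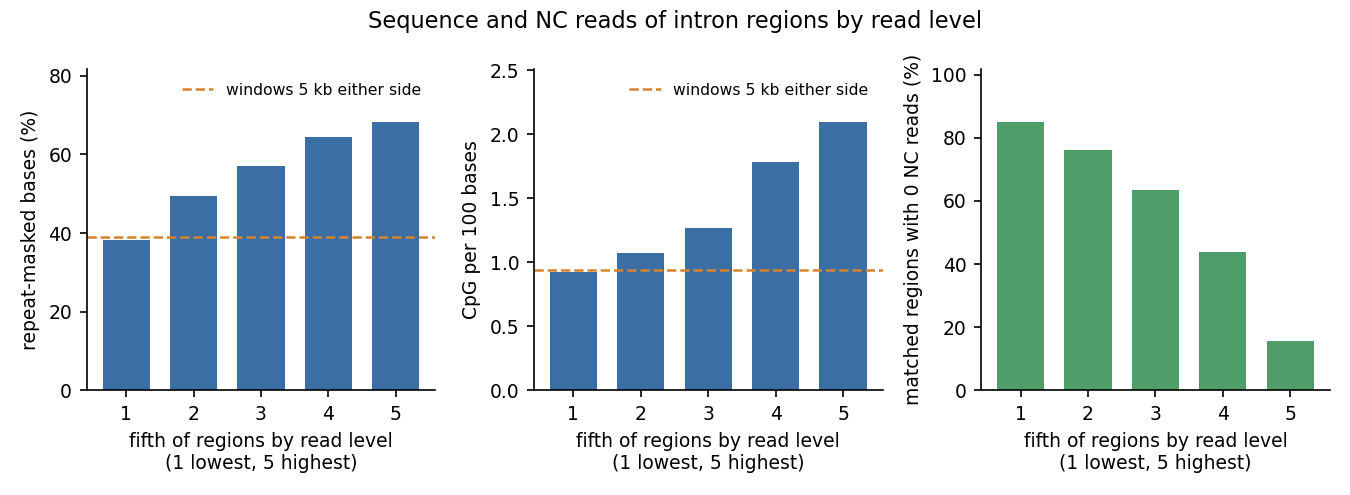
Intron regions in 5 groups by the mean of their scaled TGF and siHK1 counts (1, lowest; 5, highest). Bars give repeat-masked bases (%), CpG per 100 bases, and the share of regions matched to the NC table that hold 0 NC reads (%); dashed lines give windows 5 kb to either side. Masked bases go from 38.3% to 68.2%, and regions with 0 NC reads from 84.9% to 15.8%.

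The share of regions in the first, second and later introns of a gene was close to the share of intron length. The named transcript and intron were found in GENCODE vM21, on GRCm38, for 16928 of 17243 regions (98.2%). Of these, 5914 (34.9%, 95% interval 34.2 to 35.7) lay in the first intron, and the first intron made up 35.0% of the intron length of the same transcripts on average. The second intron held 19.9% against 19.5% by length, and the third 12% against 12%. Over all 17243 regions by the authors' annotation, 6046 (35.1%) were in a first intron. First introns differed little from later ones in level, with a median of 15 TGF reads against 14 in introns 5 and later.

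**Figure D3:**
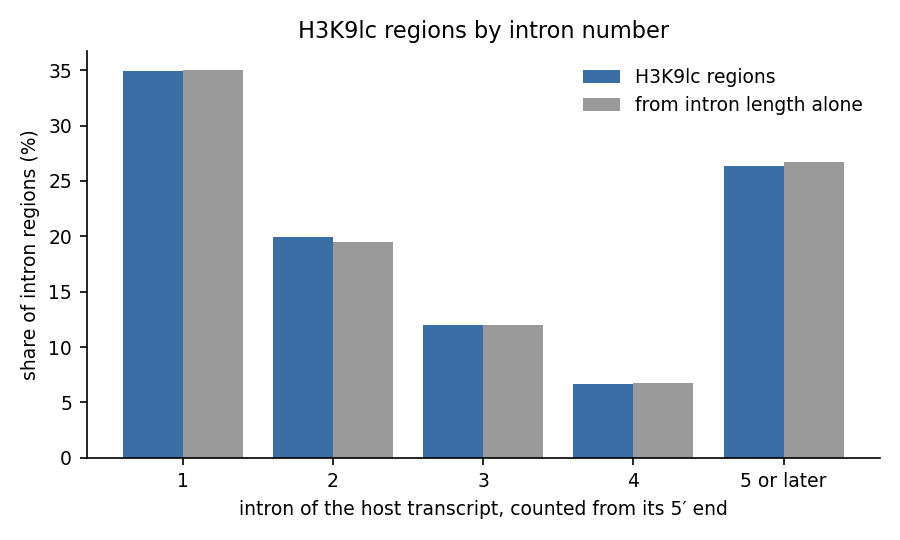
Share (%) of the 16928 H3K9lc intron regions with a known transcript that lie in each intron, counted from the 5′ end (blue), beside the mean share of intron length which that intron takes in the same transcripts (grey). The bars of each pair are close, with 34.9% and 35.0% for intron 1 and 26.4% and 26.8% for introns 5 and later.

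Host introns were long, with a median of 38.6 kb (quartiles 14.9 and 103), and the regions lay a median of 9.01 kb from the nearest exon. The median distance to the start site the authors assigned was 32.4 kb. With each intron cut into 5 stretches of equal length, the first stretch held 14.8% of the regions, the middle one 23.3% and the last 17.8%; regions near a start site are classed as promoters and are not counted here. Protein-coding transcripts hosted 65.7% of the regions and lincRNAs 15.2%. The gene whose start site the authors assigned was the host in only 61.9% of cases, so host genes are used here. By chromosome there were 15.8 regions per Mb of intron sequence in all. Chromosome 7 had 20.9 per Mb and chromosome 11, the lowest autosome, 11.6.

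The 17243 regions fell in 5725 host genes, of which 2591 held 1 region and 266 held 10 or more. The host with most regions was Gm20388, with 126, a gene model of 4435 kb, and the authors assigned regions in it to other genes such as Jph3 and Urb2. Dpp10, an auxiliary subunit of potassium channels, and Tmem132d, a membrane protein, had 79 regions each, in 724 kb and 651 kb of gene. Csmd1, a complement regulator, had 68, Fgfr2, a fibroblast growth factor receptor with a gene model of 2961 kb (17.9 regions per Mb), 53, Pcdh15, a cadherin of the hair cell, 48, Skint5 47, Gm42416 46 and Cdh13, T-cadherin, 44. C130026I21Rik had 55 regions in 278 kb. The central 31 bases were found once in the genome at 72 of 79 regions in Tmem132d and at 5 of 55 in C130026I21Rik, so these dense hosts were of unlike kinds.

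Among genes with at least 5 regions, Zfp991, a zinc finger gene, led with 17 regions in 48.5 kb, or 350.2 per Mb against 13.2 over all annotated genes. Its regions held 20 to 123 TGF reads and 9 to 69 siHK1 reads, and 0 of the 17 had a centre found once in the genome. Gm16242 followed with 331 per Mb, Gm13147 with 310, Gm12876 with 306 and Zfp986, another zinc finger gene, with 289. All but Gm16242, on chromosome 6, lay on chromosome 4.

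HK1 depletion was examined by setting siHK1 beside TGF at each intron region, after bringing the libraries to equal totals over all listed regions. A ratio is log2 of (count + 0.5) in siHK1 over that in TGF, with each divided by its library's total. This scaling removes any change shared by all listed regions. A centre near no difference therefore does not show that the mark was unchanged as a whole. The median ratio in introns was -0.05, with quartiles at -0.57 and 0.51. It was -0.08 for promoters, -0.10 for distal intergenic regions and -0.08 for all listed regions. A region was called lower or higher at a difference of at least 2-fold with a mean scaled count of at least 10. By this rule 404 of 9073 intron regions were lower in siHK1 (4.45%, 95% interval 4.04 to 4.90) against 4.89% of all listed regions. Higher were 374 (4.12%, 3.72 to 4.55) against 3.75% of all. Lower and higher regions were thus close to equal in number in introns, whereas distal intergenic regions had 1370 lower and 958 higher. All intervals given here cover counting error alone, and reads copied by PCR do not count separate molecules.

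The balance of the 2 directions moved with the scaling and with the pseudocount. On the normalised log2 values that the authors deposited for each library, the median in introns was -0.16, with 554 lower and 253 higher, against 6.70% lower and 2.52% higher over all listed regions. The lower share of the calls was 51.9% with equal totals and 68.6% on the deposited values. With edgeR's TMM scaling the calls were 285 lower and 563 higher, and the median was 0.05. At equal totals, a pseudocount of 1 gave 302 lower and 370 higher, and one of 0.1 gave 482 and 380. No direction for introns as a whole is therefore given.

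**Figure D4:**
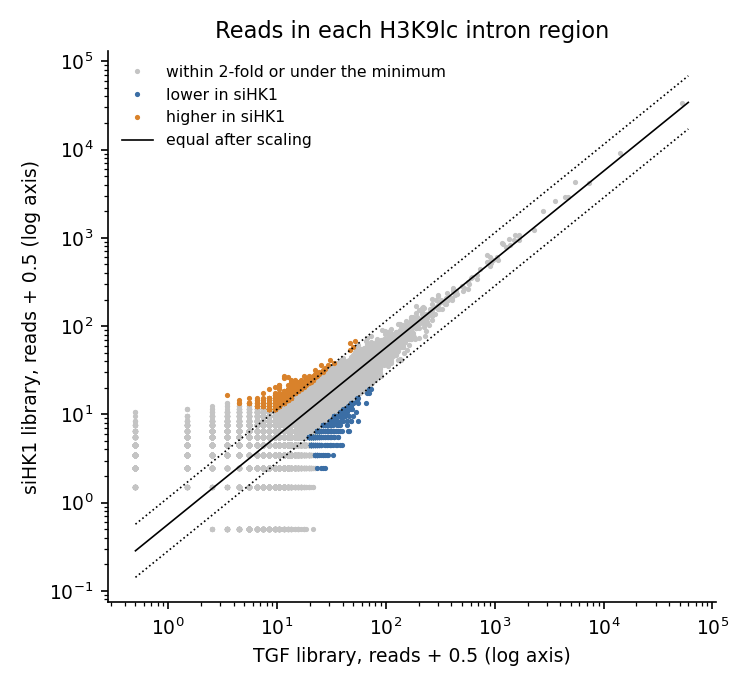
Reads of each of the 17243 intron regions in the TGF (x) and siHK1 (y) libraries, plus 0.5, on log axes. The solid line marks equal values after scaling and the dotted lines a 2-fold difference; 404 regions are coloured as lower and 374 as higher in siHK1.

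Calls came mostly from thinly covered regions. In the highest of the 5 groups by level, 19 of 3446 were lower and 25 higher (0.551% and 0.725%). In the middle group, among the 2180 that reached the minimum, 212 were lower and 213 higher. The peak marks tracked the ratios by construction. At the 9078 intron regions with a peak in TGF alone the median log2 ratio was -0.50, at the 4518 with a peak in siHK1 alone it was 1.10, and at the 3585 with a peak in both it was 0.09. Of the 404 lower regions, 398 had a peak in TGF alone, and of the 374 higher ones 318 had a peak in siHK1 alone.

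The lowest ratios among the 4663 intron regions with a mean scaled count of at least 20 are given as a description, since they were chosen for their ratio. In Myrip, which links secretory organelles to the actin motor myosin VIIa (chr9:120318770-120319622, intron 1), TGF had 45 reads, siHK1 6 and NC 1, a log2 ratio of -2.0 (counting interval -3.62 to -0.86). In Nlrp9c, an NLR gene (chr7:26338183-26338829), the counts were 44, 6 and 1. In Gm37240 (chr3:84612422-84613231) they were 55, 8 and 1. The regions in Gm34838 (43 TGF and 7 siHK1 reads), Gm49692 (47 and 8) and Zfp979 (47 and 8) completed this set, with log2 ratios from -1.72 to -1.67. All 6 carried a peak in TGF alone.

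At the other end, Gm8091 (chr5:100350830-100351709, intron 1) had 11 TGF and 27 siHK1 reads, a log2 ratio of 2.07 (counting interval 1.05 to 3.27). The other 5 were 2 regions in Gm20388 (11 and 25 reads; 13 and 23), Nlrp4e, another NLR gene (12 and 26), Gm33626 (13 and 24) and Kcnj6, an inwardly rectifying potassium channel (14 and 24), with log2 ratios down to 1.57. Of these 6, 5 carried a peak in siHK1 alone and Kcnj6 in both. The central 120 bases of the lowest and the highest region are printed to show that they differ in kind: both were found once in the genome, but the second is a run of imperfect repeats of a short unit.
Myrip, chr9:120319136-120319255, plus strand: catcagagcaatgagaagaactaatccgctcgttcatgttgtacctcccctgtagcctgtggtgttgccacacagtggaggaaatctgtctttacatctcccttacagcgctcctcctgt
Gm8091, chr5:100351209-100351328, plus strand: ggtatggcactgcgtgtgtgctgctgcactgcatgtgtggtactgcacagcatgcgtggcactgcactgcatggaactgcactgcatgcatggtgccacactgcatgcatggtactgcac

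**Figure D5:**
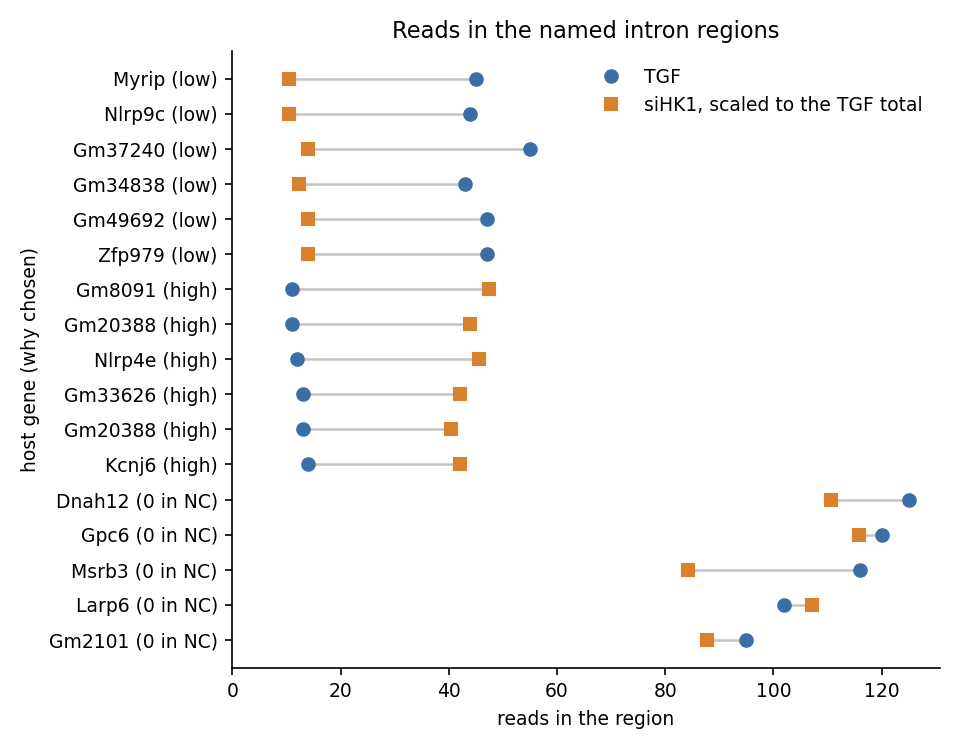
Reads in the named intron regions, by host gene: TGF counts (circles) and siHK1 counts scaled to the TGF total (squares), for the 6 lowest and 6 highest ratios and the 5 with 0 reads in NC. The low regions have 43 to 55 TGF reads, the high ones 11 to 14, and the 5 with 0 in NC have 95 to 125 TGF reads.

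Intron regions with shared sequences were mostly near a ratio of 0. The median log2 ratio was -0.02 for A, -0.06 for B, 0.01 for C, -0.04 for D, -0.09 for G and -0.04 for H. It was -0.17 for E and -0.31 for F, which had the lowest median reads of the 8. Of the 233 regions with F, 163 had a peak in TGF alone, against 9078 of all 17243 intron regions (52.6%). Of the 1977 regions with any of the 8 sequences and enough reads, 54 were lower and 43 higher (2.73% and 2.18%), against 350 and 331 of 7096 (4.93% and 4.66%) among the rest. The former had a median of 31 TGF reads and the latter 13, and the part of read number in this difference was not tested. Regions with a centre found once in the genome had 206 lower and 197 higher of 3707 (5.56% and 5.31%), and a median ratio of -0.04.

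The comparison of TGF with NC was limited by the NC library. An NC count was taken where the NC table listed the same start and end, which held for 9859 intron regions (57.2%). Of these, 9856 carried a peak in TGF and 84 a peak in NC, so the match itself picks regions that were peaks in TGF. The matched regions held 10846 NC reads and 285668 TGF reads. NC had 0 reads at 5620 of them (57.0%, 95% interval 56.0 to 58.0), close to the 56.0% of all matched regions, and 1 read at 2488. At the median TGF count of 17, equal totals would give 0.849 NC reads, so a 0 is not informative at most regions. Relative to equal totals, the log2 ratio of the summed reads, TGF over NC, was 0.40 in introns, 0.49 in promoters, 0.42 in distal intergenic regions and 0.14 over all matched regions, and no gain is read from it since nearly all matched regions were peaks in TGF. The share with 0 NC reads went from 84.9% in the lowest group by level to 15.8% in the highest. Only 42 matched regions had more than 10 NC reads, and they held 30.2% of the NC reads.

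The deepest TGF regions with 0 NC reads were chosen for that 0, so their counts are a description and give no bound on a fold. In Dnah12, an axonemal dynein heavy chain (chr14:26740031-26741535, intron 20), TGF had 125 reads, siHK1 63 and NC 0, where 6.24 NC reads would match TGF. In Gpc6, a heparan sulfate proteoglycan (chr14:117861189-117862272), the counts were 120, 66 and 0. In Msrb3, a methionine sulfoxide reductase (chr10:120886278-120888175), they were 116, 48 and 0. In Larp6, an RNA-binding protein of collagen messages (chr9:60727477-60728342), they were 102, 61 and 0, and in Gm2101 (chrX:27687234-27688551) 95, 50 and 0. The centre of the Dnah12 region was found once in the genome, but those of Gpc6, Msrb3, Larp6 and Gm2101 had 1218, 801, 1513 and 70 copies of their central 31 bases (1195, 1, 450 and 11 of their central 50), and each of these 4 regions held at least 1 of the shared sequences A to H.

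Overlap with the transcription factor tables was modest. Of the 17243 intron regions, 1256 (7.28%, 95% interval 6.90 to 7.68) shared at least 1 base with a listed JUN region, against 20.7% of promoter, 3.90% of distal intergenic and 5.92% of all listed H3K9lc regions. For SMAD3 it was 1388 (8.05%), against 14.9% of promoter, 5.04% of distal intergenic and 6.50% of all regions. For NFATC2 it was 1384 (8.03%), against 13.6%, 5.27% and 6.58%, and 498 intron regions overlapped all 3 factors. JUN overlap was found at 12% of intron regions with up to 20% masked bases and at 4.92% of those with over 80%. For SMAD3 the same shares were 8.99% and 8.66%. Among the 8 shared sequences, B had the highest shares, with SMAD3 overlap at 10.3% and NFATC2 overlap at 15.0% of its 387 regions. Its regions were also deep, with a median of 41 TGF reads. In the highest of the 5 groups of intron regions by level, the shares were 15.4% for SMAD3 and 15.2% for NFATC2. Regions overlapping JUN had a median of 19 TGF and 10 siHK1 reads, and 43 of 767 were lower and 26 higher in siHK1 (5.61% and 3.39%), near the 4.35% and 4.19% of regions without JUN overlap. Those overlapping SMAD3 had 24 lower and 43 higher of 981 (2.45% and 4.38%), and NFATC2 26 and 39 of 963 (2.70% and 4.05%), against 4.70% and 4.09% without SMAD3 overlap and 4.66% and 4.13% without NFATC2 overlap. The differences between these shares were not tested, and the level of the regions differed with them, with a median of 24 TGF reads at SMAD3 overlaps.

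The AP-1 letters TGANTCA, which read the same on both strands, were found in the central 200 bases of 13.5% (11.7 to 15.6) of the intron regions that overlapped JUN and of 5.97% (5.61 to 6.35) of the others. Over all introns the share was 6.52%, against 5.59% in windows 5 kb to either side, 6.30% in distal intergenic and 5.38% in promoter regions. The SMAD letters CAGAC, on either strand, were in 34.5% of introns that overlapped SMAD3 and in 43.8% of the others. The NFAT letters TGGAAA were in 7.37% of those that overlapped NFATC2 and in 15.0% of the others. Such a match is a description of letters, not of binding. Of the 170 intron regions with JUN overlap and the AP-1 letters, 105 were masked over at most 20% of their bases. The 2 of these with most JUN reads in TGF lay in Ahnak2, a large scaffold protein (755 JUN reads; 15 TGF and 5 siHK1 reads of H3K9lc), and in Camk2d, a calcium-dependent kinase of the heart (589 JUN reads; 18 and 5 reads of H3K9lc). They are printed with the AP-1 letters in capitals, and NC had 0 reads at both.
Ahnak2, chr12:112797598-112797717, plus strand: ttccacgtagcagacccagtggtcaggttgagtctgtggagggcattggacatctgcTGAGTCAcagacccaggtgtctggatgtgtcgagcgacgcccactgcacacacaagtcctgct
Camk2d, chr3:126831509-126831628, plus strand: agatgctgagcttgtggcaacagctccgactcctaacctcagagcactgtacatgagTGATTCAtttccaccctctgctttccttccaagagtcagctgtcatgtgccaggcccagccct

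Of 44 matrix and myofibroblast genes, 4 hosted an intron region, a share close to that of all annotated genes (5725 of 55341). They held 21 regions, or 6.41 per Mb of gene against 13.2 over all annotated genes. None was found in introns of Col1a1, Col1a2, Col3a1, Fn1, Postn or Acta2. Smyd3, a histone methyltransferase, had 13 regions, the deepest with 114 TGF and 73 siHK1 reads, and Col15a1, a basement membrane collagen, had 5. Col14a1 had 2 and Axin2, an inhibitor of Wnt signalling, 1. Of the 14 regions in this list with enough reads, 0 were lower and 0 higher. At the shares of all intron regions (4.45% and 4.12%), less than 1 call in each direction would fall among so few regions, so nothing is read from the calls in this list or in those of the TGF-β pathway, glycolysis and transcription factors.

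Genes of the TGF-β pathway hosted 22 regions in 12 of 33 genes, against 5725 of 55341 over all genes, and their density was 7.74 per Mb against 13.2. Among receptors, the region of Acvr1 (chr2:58425941-58426506, intron 10) stood out in level with 1044 TGF, 610 siHK1 and 40 NC reads, a log2 ratio of 0.04. Acvr2a, an activin receptor, held the 1 lower region of the 10 with enough reads (chr2:48853514-48853979, intron 1), with 23 TGF, 5 siHK1 and 0 NC reads and a log2 ratio of -1.28; 0 were higher. Bmpr1b had 2 regions with 99 TGF and 66 siHK1 reads in all, Acvr2b 3 with 87 and 46, and Tgfbr3, a co-receptor, 2 with 15 and 10. Among SMADs, the signal transducers, Smad4 had 3 regions (56 and 32 reads), Smad5 had 2 (51 and 18), Smad9 had 3 (29 and 7), and Smad1 (5 and 0) and Smad3 (2 and 3) had 1 each. No intron region was hosted by Tgfb1, Tgfb2, Tgfb3, Tgfbr1, Tgfbr2 or Smad2.

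Among 39 genes of glycolysis and lactate handling, 7 hosted a region, against 5725 of 55341 over all annotated genes. They held 13 regions (10.3 per Mb against 13.2 over all genes), and 0 of the 6 with enough reads were lower or higher. Hk1, the gene targeted by the siRNA, had 3. The deepest, in intron 1 (chr10:62366022-62366888), had 34 reads in TGF and 35 in siHK1, a log2 ratio of 0.85, and the other two had 9 and 2 reads and 8 and 5 reads. NC had 0 reads at these other two and no matched count at the first. Pdk3, which restrains pyruvate oxidation, had 1 region with 41 TGF and 27 siHK1 reads. Slc16a7, a transporter of lactate and pyruvate, had 2 with 32 and 13. Ldha and Ldhb, the main subunits of lactate dehydrogenase, hosted none.

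Of 33 transcription factor genes linked to the study, 3 hosted a region, a share close to that of all annotated genes (5725 of 55341). These were Runx1 (10 regions), Nfatc2 (6) and Runx2 (5), with 10.5 per Mb in all against 13.2 over all genes. The regions of Nfatc2 held 92 TGF and 47 siHK1 reads in all, with log2 ratios from -0.95 to 0.92, and those of Runx1 130 and 73. Of the 10 in this list with enough reads, 0 were lower and 1 was higher. This was a region of Runx1 with 9 TGF and 11 siHK1 reads, a log2 ratio of 1.09 (chr16:92758337-92758629, intron 2), and on the deposited log2 values, where it was 0.92, it was not called.

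The 56 long adhesion and synapse genes hosted 864 regions, at least 1 in each. They span 66.9 Mb, and their density of 12.9 per Mb of gene was close to the 13.2 over all genes. Single genes of the list varied widely, from 42.3 per Mb in Cdh13 and 41.4 in Csmd1 to 3.72 in Nrxn3 and 3.25 in Tenm2. Of 394 with enough reads, 15 were lower and 12 higher, near the 4.45% and 4.12% of all intron regions. In Csmd1 the 68 regions summed to 882 TGF and 478 siHK1 reads, in Cdh13 the 44 summed to 654 and 352, and in Pcdh15 the 48 to 748 and 340.

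Genes that mark cell types hosted few regions, and no order of the lists is read from them. There were 12 for macrophages (27.4 per Mb of gene), 16 for endothelium (18.8), 5 for fibroblasts (12), 17 for cardiomyocytes (7.83) and 1 for smooth muscle and pericytes (2.88), against 13.2 per Mb over all genes. Adgre1, a macrophage surface receptor, held 9 of the 12 macrophage regions, and Flt1 held 9 of the 16 endothelial ones. A region was found in 3 of 12 fibroblast markers (Dcn, Ddr2 and Gsn), 5 of 13 of cardiomyocytes, 4 of 9 of endothelium, 4 of 8 of macrophages and 1 of 7 of smooth muscle and pericytes. Over all annotated genes, 5725 of 55341 hosted a region. The fibroblast genes Pdgfra, Tcf21 and Col1a1 hosted none. The deepest region in these lists lay in Flt1, a VEGF receptor (chr5:147611435-147611709, intron 15), with 1518 TGF, 1075 siHK1 and 245 NC reads. A histone mark is not RNA, so the fibroblast label could not be checked from these counts.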

How the data were processed

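CUT&Tag libraries of NC, TGF and siHK1 (SI) cells for H3K9lc were used, 1 library each, with JUN, SMAD3 and NFATC2 tables for overlap only. NC and SI were mapped to their tables through the library labels. The methods name Bowtie2, MACS2 and GRCm39, whereas the submitters' processing notes list BWA 0.7.12 and mm10. Transcript introns in the tables match GENCODE vM21, so coordinates are on GRCm38, counted from 1. The deposited tables hold raw read counts per region, made by the authors over the joined peaks of 2 libraries, 0 or 1 peak marks, and normalised log2 values per library. Their fold changes, errors, p-values and calls, made by the authors, were not used, nor were 6 columns of normalised values in the factor tables and the unassigned library titled TGF.

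Ratios were log2 of (raw count + 0.5), each divided by its library's total over listed regions (pandas 2.3.3, numpy 2.4.6). Shares have exact Clopper-Pearson 95% intervals from scipy 1.17.1, and ratio intervals come from the exact interval of the siHK1 share of both counts, covering counting error only. Calls needed 2-fold and a mean scaled count of 10. TMM came from edgeR 4.0.16. The scripts were tested on simulated counts, with larger changes and in deeper regions than a call needs. Calls at 2-fold and a mean of 10 were not tested in this way. Host genes are those of the annotated transcript. Named regions were the 5 with most TGF reads, the 6 lowest and highest ratios at a mean of at least 20, the 5 with most TGF reads and 0 in NC, the hosts with most regions (10) and most per Mb (5, of genes with at least 5 regions), and the members of each list. Members and lists were chosen with earlier results of these data known.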

Additional observations from a re-analysis of the deposited data

How the results depend on the processing

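No paired analysis was possible because there was a single library for NC, for TGF and for siHK1. The siHK1 over TGF calls in introns (404 lower and 374 higher) became 3983 and 14 with no scaling, 58 and 62 at a minimum of 20, 2319 and 2565 with no minimum, and 1369 and 1080 at 1.5-fold; TMM scaling gave 563 higher. The median (-0.05) turned to 0.053 with TMM and to 0.013 when the 100 most-read regions were left out of the totals, an alternative added after seeing the data that gave 328 lower and 472 higher. It was -0.16 on the authors' log2 values, -0.86 with no scaling, -0.018 with a pseudocount of 1, -0.072 with 0.1, -0.014 at a minimum of 20, and -0.075 for regions of at least 200 bp. The median of TGF over NC (0.07) turned to -0.62 with a pseudocount of 1 and to -0.25 without those 100 regions. It was 0.30 at 20 or more TGF reads, 1.83 with a pseudocount of 0.1, 1.17 on the authors' values and 4.39 with no scaling. Regions with 0 NC reads (57.0%) were 52.2% with the best-overlapping NC region and 32.5% at 20 or more TGF reads. The first-intron share (35.1%) moved by less than its counting interval under the 5 alternatives run. For each of these settings the cause was not tested. Low counts limit every call, and without replicates no spread between samples is known.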
